A study of Mus musculus with 24 samples.

Results

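GSK215 and BSJ-04-0146 are degraders of focal adhesion kinase (FAK), the product of *Ptk2*, and their effects on gene expression were set against each other at the same dose and time. The comparison used the 3 libraries of cells given 0.1 µM GSK215 and the 3 libraries of cells given 0.1 µM BSJ-04-0146 (spelled BSJ-04-146 in the series' design), each for 24 hours, which are 6 of the 24 libraries of the series. All 49315 genes of the count table were considered, and 16070 of them had enough reads to be tested. The cells were MS03, an immortalized mouse Schwann cell (SC) line made *Nf2*-/- by Cre in cells of an *Nf2* flox/flox animal. Both treated groups and the 3 libraries of the solvent control (DMSO) come from this single line and carry the same *Nf2* loss. Each compound was sequenced at a single dose and a single time, so the comparison is at equal concentration. The labels call the samples of a group biological replicates without saying whether they were grown as separate cultures. *P* values set a difference against the spread between samples of a group, estimated over all 24 libraries.

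FAK is a cytoplasmic tyrosine kinase that couples integrins at focal adhesions to signaling through SRC, ERK and PI3K, and it also holds adhesion complexes together as a scaffold. A PROTAC is a molecule that brings its target to an E3 ubiquitin ligase, so that the target protein is ubiquitinated and destroyed by the proteasome. The step acts on protein, and the transcript of the target does not report whether the protein was removed. FAK protein was not measured in these files.

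The 6 libraries held between 14472462 and 19331704 counts, and the 3 DMSO libraries between 22952048 and 27449516. SC genes were present in every library, with *Sox10* between 436 and 2080 counts and *Ngfr* between 213 and 1285 in the 9 libraries. *S100b* was low, at 1 to 18 counts. Of 13 macrophage markers, 11 had at most 10 counts in each of these 9 libraries, as did 6 of 8 fibroblast markers, 10 of 11 neuron markers and 3 of 7 endothelial markers. The BSJ-04-0146 libraries differed more among themselves than the GSK215 libraries did, with chi-square values per degree of freedom of 2.951 to 4.843 between pairs against 1.795 to 2.056. Levels below are CPM, counts scaled to a common library size with TMM factors, and differences are log2 values of GSK215 minus BSJ-04-0146 from edgeR's quasi-likelihood test, so that a negative value means a higher level with BSJ-04-0146.

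The compounds differed at many genes by small amounts. Of the 16070 genes tested, 3615 (22.5%) passed a Benjamini-Hochberg adjusted *P* of 0.05, of which 1588 (9.88%) were higher in GSK215 and 2027 (12.6%) were lower. The median size of the difference was 0.14 over all genes and 0.22 over the genes that passed. A difference of at least 1.5-fold was found at 254 genes (1.58%), 132 of them higher in GSK215 (0.821%) and 122 lower (0.759%), and of at least 2-fold at 76 genes (0.473%), 40 of them higher. For 10934 genes (68%), the 95% interval of the difference lay entirely within 1.5-fold in either direction. This held for 2396 of the 2416 genes with a mean of at least 100 CPM, but for only 834 of the 5688 genes under 5 CPM, whose median standard error was 0.35 against 0.036 for the abundant genes. The levels of the 6 libraries did not overlap between the compounds at 34.2% of the genes tested. This was the only pair of compounds compared.

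**Figure D1:**
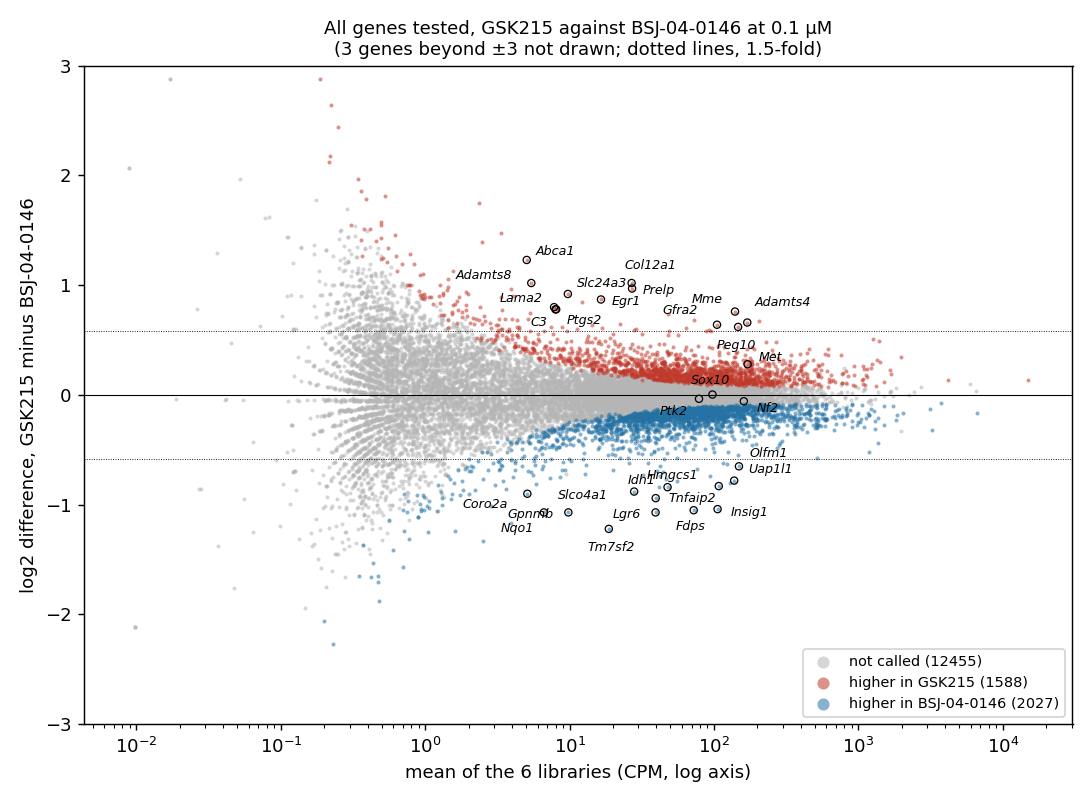
Each point is a gene tested, placed by its mean level over the 6 libraries (CPM, log axis) and its log2 difference, with red for the 1588 genes higher in GSK215, blue for the 2027 genes higher in BSJ-04-0146 and grey for the rest. Circles mark genes named in the text, and most colored points lie between the dotted lines that mark a 1.5-fold difference; 3 genes beyond a log2 difference of 3 are not drawn.

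Called genes were ranked if they had a mean of at least 5 CPM, groups that did not overlap and a symbol other than a predicted-gene or clone identifier. Among these, the gene with the largest excess in GSK215 was *Abca1*, which encodes an exporter of cholesterol (1.23, SE 0.171, adjusted *P* = 7.5e-07). It was followed by *Adamts8* (1.02), *Col12a1* (1.02), *Prelp* (0.97), *Slc24a3* (0.92), *Egr1* (0.87), *Lama2* (0.80), *C3* (0.78), *Ptgs2* (0.78) and *Mme* (0.76). *Mme*, the gene of the membrane metalloendopeptidase neprilysin, was at 178, 177 and 172 CPM in GSK215 and at 107, 101 and 105 CPM in BSJ-04-0146, against 50.6 CPM in DMSO. Every GSK215 library was above every BSJ-04-0146 library, and both groups were above DMSO.

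On the other side of the same ranking, the largest deficits in GSK215 were at *Tm7sf2* (-1.22), *Gpnmb* (-1.07), *Lgr6* (-1.07), *Nqo1* (-1.07), *Fdps* (-1.05), *Insig1* (-1.04), *Tnfaip2* (-0.94), *Coro2a* (-0.90), *Slco4a1* (-0.88) and *Idh1* (-0.84). *Lgr6*, which encodes a receptor for R-spondins, was at 25.9, 24.7 and 25.8 CPM in GSK215 and at 56, 52.5 and 51.6 CPM in BSJ-04-0146, a 2.1-fold higher mean with BSJ-04-0146. *Idh1*, which encodes the cytosolic isocitrate dehydrogenase that makes NADPH, was at 34.9, 33.9 and 33.8 CPM and 63.5, 61.2 and 59.1 CPM in the same order, with a DMSO mean of 31.1 CPM. For *Idh1* the GSK215 libraries therefore lay near DMSO (log2 difference 0.13) and the BSJ-04-0146 libraries above it (0.98). Among genes with a mean of at least 100 CPM, large differences were at *Mme* (0.76), *Adamts4* (0.66), *Gfra2* (0.64) and *Peg10* (0.62) on the GSK215 side and at *Insig1* (-1.04), *Hmgcs1* (-0.83), *Uap1l1* (-0.78) and *Olfm1* (-0.65) on the BSJ-04-0146 side.

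Cholesterol is made from acetyl-CoA through the mevalonate pathway, and the genes of the pathway are switched on together by the transcription factor SREBP2 (*Srebf2*) when sterols in the endoplasmic reticulum are low. INSIG proteins hold SREBP2 back, while the liver X receptors drive export genes such as *Abca1* when sterols are plentiful. Of 32 members of a list of synthesis and uptake genes that were tested, 22 were lower in GSK215 and 1, *Abca1*, was higher, with a median difference of -0.45 (all genes tested, 12.6% lower, 9.88% higher, median -0.0051). Taken step by step, the cytosolic thiolase *Acat2* (-0.74) and the early enzymes *Hmgcs1* (-0.83), *Mvk* (-0.49), *Pmvk* (-0.55), *Mvd* (-0.68), *Idi1* (-0.84) and *Fdps* (-1.05) were lower in GSK215. The enzymes that commit farnesyl groups to squalene and close the first sterol ring, *Fdft1* (-0.77), *Sqle* (-0.41) and *Lss* (-0.48), were lower as well. Of the later steps, *Cyp51* (-0.55), *Tm7sf2* (-1.22), *Msmo1* (-0.67), *Nsdhl* (-0.70) and *Hsd17b7* (-0.40) were lower, whereas *Ebp* (0.073), *Sc5d* (-0.07) and *Dhcr7* (0.021) did not pass the test.

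*Insig1* (chr5:28071363-28078662, plus strand in the GENCODE annotation of GRCm38, as are the gene positions below) was at 69.6, 69.7 and 68.4 CPM in the GSK215 libraries, at 143, 144 and 142 CPM in the BSJ-04-0146 libraries and at 126, 125 and 126 CPM in DMSO. The groups were clearly separated, with a difference of -1.04 (SE 0.0364, 95% interval -1.12 to -0.97, adjusted *P* = 5.2e-23). *Hmgcs1*, the gene of the synthase that makes HMG-CoA (chr13:119690379-119708260, plus strand), was at 78.6, 76.1 and 77.6 CPM in GSK215, 139, 138 and 137 CPM in BSJ-04-0146 and 142, 140 and 144 CPM in DMSO. Its BSJ-04-0146 libraries lay at the DMSO level and its GSK215 libraries well below it. *Fdps*, farnesyl diphosphate synthase (chr3:89093588-89101959, minus strand), was at 47.8, 47.6 and 46.2 CPM in GSK215 and 107, 102 and 83.5 CPM in BSJ-04-0146, where replicate 3 was lower than the other two but still above every GSK215 library.

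Against DMSO, the 2 compounds share their 3 control libraries, so their values are given side by side. In GSK215, 22 members of the list were below DMSO and 8 above it, with a median log2 difference of -0.47 (all genes tested, 27.2% below and 27.4% above). In BSJ-04-0146, 9 were below and 12 above, with a median of 0.027 (all genes tested, 26.9% and 27.7%). *Insig1* differed from DMSO by -0.86 in GSK215 and 0.18 in BSJ-04-0146, *Hmgcs1* by -0.88 and -0.045, and *Fdps* by -0.97 and 0.078. The latter ranged from 0.0066 to 0.17 when a library was left out, passing the test without BSJ-04-0146 replicate 3 (0.17, adjusted *P* = 0.00157), and was 0.19 with library totals alone (adjusted *P* = 0.00204). For *Lss*, the cyclase that closes the ring, the values were -1.01 and -0.53, so this gene was below DMSO with either compound and further below with GSK215. *Tm7sf2*, a sterol reductase, was above DMSO with either compound, at 0.38 in GSK215 and 1.60 in BSJ-04-0146.

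The regulators of the pathway moved less evenly. *Srebf2* itself was lower in GSK215 (-0.35, with 223 against 285 CPM on average), while *Scap* (0.043) and *Insig2* (-0.11) did not pass the test. Of the genes that move cholesterol, *Stard4* (-0.65) and *Npc2* (-0.27) were lower in GSK215, and *Npc1* (-0.068) and *Mylip* (-0.054) did not pass. *Abca1* was at 7.68, 6.57 and 7.01 CPM in GSK215, 3.65, 2.76 and 2.6 CPM in BSJ-04-0146 and 2.26, 2.74 and 2.27 CPM in DMSO. It was thus the single member that was higher with GSK215, and its groups did not overlap. With GC content and transcript length trends removed from the counts, 24 members were lower and 2 higher, the added calls being *Sc5d* and *Npc1* on the lower side and *Ebp* on the higher side. Leaving out any single library of the pair left 22 members lower.

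**Figure D2:**
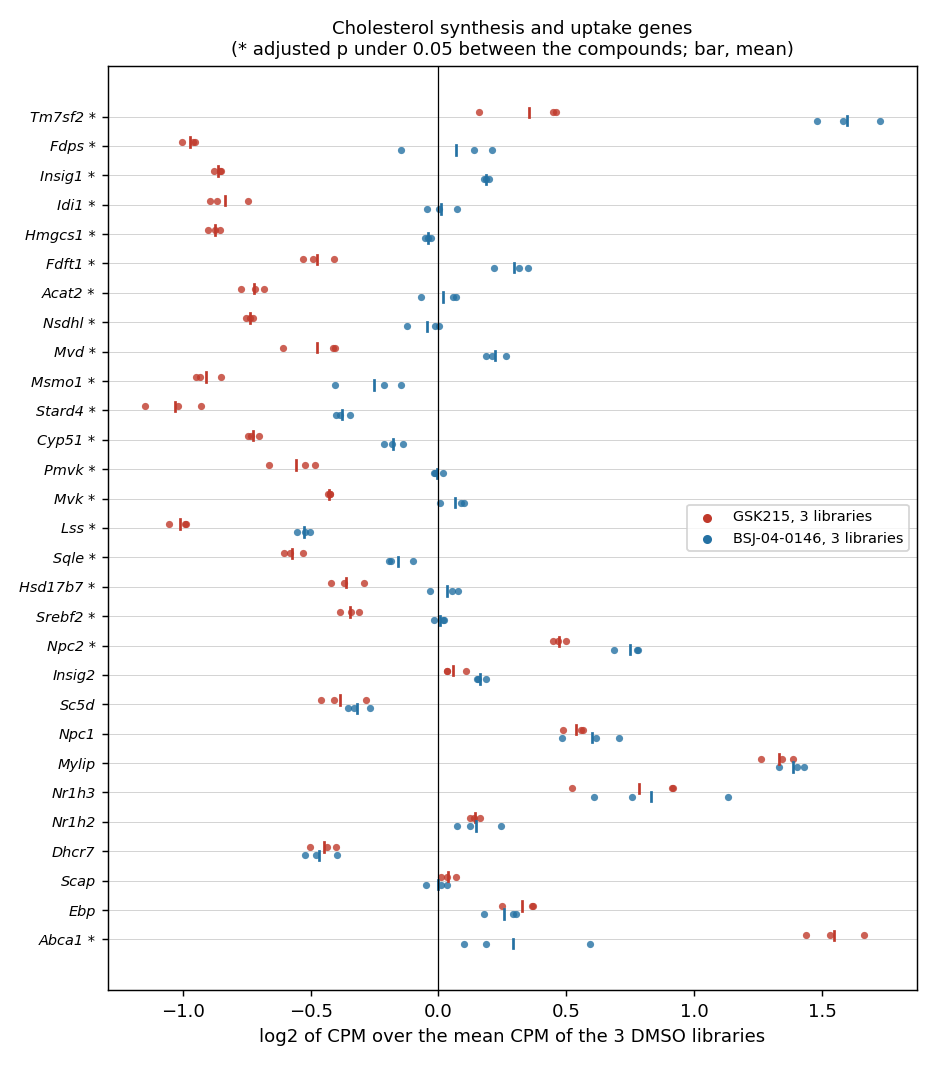
Levels of 29 tested members of the cholesterol list in each GSK215 (red) and BSJ-04-0146 (blue) library, as log2 of the CPM over the mean of the 3 DMSO libraries, with vertical bars at the mean of 3. From *Tm7sf2* at the top to *Npc2*, the red points lie left of the blue ones, *Abca1* at the bottom shows the opposite order, and the genes between them carry no asterisk.

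The RefSeq promoters of these genes were searched for the sterol regulatory element as the letters TCACNCCAC on both strands of the 250 bases before the start site, because it is the motif through which SREBP2 is known to act. It was found in 1 of the 24 members with a promoter in the table, *Hmgcs1*, and in 1.22% of 10507 tested genes. The stretch around it is at chr13:119690194-119690242, plus strand (GRCm38.p6), with the motif in capitals, starting 137 bases before the gene start of RefSeq, which differs from the GENCODE start above.
Hmgcs1: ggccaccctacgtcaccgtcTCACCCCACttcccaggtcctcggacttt
A match in this window is a description of the letters only.

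Fatty acid synthesis genes, many of them controlled by the related factor SREBP1, showed a smaller difference in the same direction. Of 23 members tested, 15 were lower in GSK215 and 2 were higher, with a median of -0.16 (all genes tested, 12.6% lower and 9.88% higher). The lower members included *Lpin1* (-0.61), *Acss2* (-0.39), *Fads1* (-0.37), *Fads2* (-0.32), *Fasn* (-0.32) and *Acly* (-0.27), and *Elovl5*, an elongase of polyunsaturated fatty acids, was higher (0.21). The other higher member lost its call in each of 5 leave-one-out fits, all except the fit without GSK215 replicate 1. *Fasn*, fatty acid synthase, was at 594, 619 and 606 CPM in GSK215 and 742, 742 and 792 CPM in BSJ-04-0146, and its DMSO mean was 723 CPM. Among genes of lipid storage and use, 8 of 20 were lower in GSK215 and 2 higher (none without GSK215 replicate 1 or without BSJ-04-0146 replicate 3), with *Plin2*, the coat protein of lipid droplets (-0.46), and the mitochondrial carrier *Ucp2* (-0.63) the farthest apart of the members that passed. *Ucp2* was at 93.6, 94.1 and 104 CPM in GSK215, close to its DMSO mean of 88 CPM, and at 147, 155 and 151 CPM in BSJ-04-0146.

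NRF2 (*Nfe2l2*) is the transcription factor that switches on detoxifying, glutathione, thioredoxin and iron-storage genes under oxidative or electrophilic stress. None of the 24 genes of its list that were tested was higher in GSK215 and 17 were lower, with a median of -0.24 (all genes tested, 12.6% lower and 9.88% higher). The most separated was *Nqo1*, a quinone reductase, at 3.81, 4.06 and 4.94 CPM in GSK215, 9.67, 9.87 and 7.5 CPM in BSJ-04-0146 and 3.8, 2.37 and 1.94 CPM in DMSO (-1.07, SE 0.167, adjusted *P* = 5.9e-06). All 3 GSK215 libraries lay below the lowest BSJ-04-0146 library. The ferritin chains *Fth1* and *Ftl1* were lower by larger absolute amounts, *Fth1* at 952, 976 and 993 CPM in GSK215 and 1438, 1442 and 1316 CPM in BSJ-04-0146 (-0.52) and *Ftl1* at a mean of 1162 against 1576 CPM (-0.44). Both have processed pseudogenes whose reads the counting could split.

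Further members that were lower in GSK215 act in heme breakdown and peroxide removal, *Hmox1* (-0.41), *Srxn1* (-0.39), *Txn1* (-0.30) and *Prdx1* (-0.24), in the pentose phosphate pathway, *G6pdx* (-0.28), *Pgd* (-0.27), *Tkt* (-0.25) and *Taldo1* (-0.24), and in glutathione synthesis, *Gclm* (-0.13). *Gclm* passed in only 1 of the 6 fits that left out a library, that without BSJ-04-0146 replicate 3 (adjusted *P* 0.0588 to 0.153 in the others), and did not pass with no filter (adjusted *P* = 0.0886), while it was at -0.21 with GC and length trends removed. *Nfe2l2* was itself lower (-0.24), and its inhibitor *Keap1* (-0.12) did not pass the test, though it did so without BSJ-04-0146 replicate 3 (-0.15, adjusted *P* = 0.0426) and with limma-trend (-0.12, adjusted *P* = 0.0429). The members *Gsr* (-0.093) and *Osgin1* (-0.18) did not pass either. Against DMSO, the list's median was -0.10 in GSK215, with 10 members above and 12 below, and 0.17 in BSJ-04-0146, with 13 above and 2 below. Over all genes tested, 27.4% were above and 27.2% below DMSO in GSK215, and 27.7% and 26.9% in BSJ-04-0146. *Aldh3a1*, an aldehyde dehydrogenase, was above DMSO with either compound (3.20 in GSK215 and 3.42 in BSJ-04-0146) and lower in GSK215 by 0.22 between them.

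The antioxidant response element, searched as TGACNNNGC on both strands, was found in 6 of the 18 members with a promoter (33.3%) and in 13.9% of 10507 tested genes. The stretches below are those of members lower in GSK215, at chr2:75704875-75704913, minus strand for *Nfe2l2*, chr3:122245403-122245451, plus strand for *Gclm*, chr4:116685446-116685494, plus strand for *Prdx1* and chrX:74428909-74428957, minus strand for *G6pdx* (GRCm38.p6), each read 5′ to 3′ on the strand of the gene, with the match on either strand in capitals.
Nfe2l2: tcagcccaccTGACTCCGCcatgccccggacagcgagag
Gclm: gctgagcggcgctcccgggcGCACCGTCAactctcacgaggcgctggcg
Prdx1: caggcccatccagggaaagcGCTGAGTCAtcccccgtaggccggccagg
G6pdx: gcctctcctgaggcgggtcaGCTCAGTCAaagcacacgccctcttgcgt

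Lysosomal and V-ATPase genes are controlled largely by the related factors TFEB, TFE3 and MITF. Of 45 members tested, 24 were lower in GSK215 and none was higher, with a median of -0.12 (all genes tested, 12.6% lower and 9.88% higher). With GC and length trends removed, 24 were lower and 2 higher. The difference ran through the proton pump, where *Atp6v1d* (-0.50), *Atp6v0d1* (-0.43), *Atp6v1g1* (-0.35), *Atp6v1a* (-0.34), *Atp6v1f* (-0.33) and *Atp6v1b2* (-0.25) and a further 6 subunits or accessory proteins were lower. Of 2 subunit genes outside the list that passed, *Atp6v0a2* was higher (0.14) and *Atp6v0a4* lower (-0.60). Neither passed in every fit that left out a library, *Atp6v0a2* failing without replicate 2 of either compound (adjusted *P* 0.0632 and 0.051) and *Atp6v0a4* without GSK215 replicate 3 or BSJ-04-0146 replicate 1 or 2 (adjusted *P* 0.102 to 0.176). It was also present at genes of nutrient sensing at the lysosome, *Rragd* (-0.72), *Flcn* (-0.30) and *Rragc* (-0.27) and at the autophagy receptor *Sqstm1* (-0.57). *Tfeb* was lower (-0.38), and its value did not pass the test without GSK215 replicate 2 (-0.28, adjusted *P* = 0.133), without BSJ-04-0146 replicate 2 (-0.35, adjusted *P* = 0.0717) or with GC and length trends removed together with the replicate block (-0.31, adjusted *P* = 0.053). Hydrolase and membrane genes that did not pass included *Ctsb* (-0.032) and *Lamp1* (-0.039). *Neu1*, a sialidase (-0.49), and *Grn*, progranulin (-0.21), were among the lower hydrolase and lumenal genes.

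*Gpnmb*, a transmembrane glycoprotein of lysosomes and melanosomes, was the most separated member. It stood at 6.57, 6.46 and 5.97 CPM in GSK215, 14.9, 13.1 and 11.9 CPM in BSJ-04-0146 and 0.859, 0.978 and 0.906 CPM in DMSO, and its difference was -1.07 (SE 0.126, adjusted *P* = 2.4e-08). Both groups were far above DMSO (2.78 and 3.85) without overlapping each other. *Sqstm1* was at 409, 411 and 428 CPM in GSK215 and 613, 635 and 602 CPM in BSJ-04-0146, with a DMSO mean of 353 CPM. Against DMSO, 38 members were higher in GSK215 (median 0.46) and 43 in BSJ-04-0146 (median 0.63; all genes tested, 27.4% and 27.7%), so the list stood above the control with each compound and its median was larger with BSJ-04-0146. Macrophages are rich in lysosomes, and 11 of 13 macrophage markers were at or under 10 counts in every library, with *Adgre1*, *Tyrobp*, *C1qa* and *C1qb* at 0. The 3 markers with enough reads to be tested were *Cd68*, *Cx3cr1* and *Fcer1g*. Their summed level was 6.3 to 7.94 CPM in GSK215, 8.07 to 9.93 CPM in BSJ-04-0146 and 3.39 to 4.08 CPM in DMSO. Most of it came from *Cd68*, itself a lysosomal gene. The other markers are not in these sums, and the part of macrophages in the result was not tested. The element GTCACGTGA, searched on both strands because TFEB is known to bind it, was present in 3 of the 37 members with a promoter (8.11%) and in 1.45% of tested genes. Those of the members lower in GSK215 were at chr2:164833739-164833772, plus strand and at chr8:3500453-3500501, plus strand.
Ctsa: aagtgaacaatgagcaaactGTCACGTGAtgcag
Mcoln1: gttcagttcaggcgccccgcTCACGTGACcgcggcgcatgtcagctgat

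The output of the ERK pathway was read from its feedback regulators and ETS factors. Of 17 members tested, 8 were lower in GSK215 and 2 higher, with a median of -0.12 (all genes tested, 12.6% lower and 9.88% higher). Among the lower were the ETS factors *Etv4* (-0.78), *Etv5* (-0.73) and *Etv1* (-0.42), the feedback inhibitors *Spry4* (-0.75) and *Dusp4* (-0.69), and *Ier3* (-0.53) and *Ccnd1* (-0.20), while *Spry1* and the receptor *Epha2* were higher (0.30 and 0.24). *Etv4* was at 40.2, 40 and 42.6 CPM in GSK215, 69, 71 and 71.2 CPM in BSJ-04-0146 and 102, 103 and 99.7 CPM in DMSO. The 3 groups did not overlap, and the order was DMSO, BSJ-04-0146, GSK215 from high to low (-1.31 for GSK215 and -0.53 for BSJ-04-0146 against DMSO). *Dusp6* (-0.088) and *Phlda1* (-0.084) did not pass the test.

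Among immediate early genes, *Egr1*, a zinc finger factor induced by growth factors, was higher in GSK215, at 21.9, 20.7 and 21.3 CPM against 11.1, 11.8 and 12.1 CPM, with 8.68, 8.5 and 10.2 CPM in DMSO (0.87, SE 0.0813, adjusted *P* = 1.5e-10). *Atf3*, a stress-induced member of the ATF family, was lower, at 1.51, 2.03 and 2.12 CPM against 3.59, 4.72 and 3.25 CPM, with 6.92, 7.97 and 7.09 CPM in DMSO (-1.01, SE 0.171, adjusted *P* = 2.0e-05). So these 2 genes moved in opposite directions between the compounds, and neither pair of groups overlapped. Of the 22 members tested (all genes tested, 12.6% lower and 9.88% higher), 7 were lower in GSK215, among them *Atf3* and *Maff* (-0.37) and *Ier5* (-0.24), and 2 were higher, *Egr1* and *Fosl2* (0.23). Without BSJ-04-0146 replicate 3, 4 members were lower. *Jun* (-0.077) did not pass the test.

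The lists of the extracellular matrix and its turnover had more members higher than lower in GSK215. Among 28 matrix proteases and inhibitors tested, 13 were higher in GSK215 and none was lower, with a median of 0.18 (all genes tested, 9.88% higher and 12.6% lower). *Mmp9*, a gelatinase, had the largest fold difference and a low level, at 3.94, 5.66 and 5.08 CPM in GSK215, 1.77, 1.73 and 1.77 CPM in BSJ-04-0146 and 0.724, 0.639 and 0.494 CPM in DMSO (1.48, SE 0.206, adjusted *P* = 7.1e-07). *Adamts4*, an aggrecanase, was at 207, 211 and 207 CPM in GSK215, 128, 132 and 136 CPM in BSJ-04-0146 and 38.8, 36 and 38.8 CPM in DMSO. Both genes stood above DMSO in each compound and higher in GSK215, with no overlap. Other members higher in GSK215 included *Adamts2* (0.90), *Plau* (0.61), *Adamts5* (0.38), *Adamts9* (0.38), *Timp2* (0.38), *Plat* (0.37), *Mmp14* (0.32), *Adamts1* (0.19) and *Timp3* (0.17).

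Collagen chains showed the same direction at 9 of 21 tested members, with 1 lower, *Col7a1* (-0.34), and a median of 0.24, beside the same 9.88% higher and 12.6% lower of all genes. *Col12a1*, a collagen that decorates fibrils (chr9:79598991-79718831, minus strand), was at 35.5, 37.9 and 34.6 CPM in GSK215, 20, 16.2 and 17.1 CPM in BSJ-04-0146 and 17.6, 18.9 and 19.4 CPM in DMSO (1.02, SE 0.0756, adjusted *P* = 2.7e-13). The BSJ-04-0146 and DMSO libraries occupied the same range, and the GSK215 libraries stood well above it. The fibrillar chains *Col3a1* (0.37), *Col1a1* (0.37), *Col11a1* (0.35), *Col5a2* (0.31) and *Col1a2* (0.24) and *Col8a1* (0.44), *Col6a1* (0.31) and *Col18a1* (0.25) were higher by smaller amounts. The basement membrane chain *Col4a2* (-0.037) did not pass the test. Fibroblasts are the main source of fibrillar collagen in nerve, and 6 of 8 fibroblast markers were at or under 10 counts in every library, with *Lum* and *Dpt* at 0. The 2 with enough reads to be tested, *Pi16* and *Cd34*, summed to 0.985 to 1.44 CPM in GSK215, 1.18 to 1.41 CPM in BSJ-04-0146 and 0.526 to 0.95 CPM in DMSO. The other markers are not in these sums.

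Integrins and laminins, the receptors that signal through FAK and the basement membrane proteins they bind, were higher in GSK215 at 12 of 25 tested members and lower at 2, with a median of 0.16 (all genes tested, 9.88% higher and 12.6% lower). The laminin chains *Lama2* (0.80), *Lama4* (0.39), *Lamc1* (0.27) and *Lamb1* (0.16) and the integrin subunits *Itgb8* (0.45), *Itga3* (0.28), *Itgav* (0.28), *Itgb1* (0.26), *Itga7* (0.21) and *Itgb5* (0.13) were among the higher. *Lama2*, the chain found in the SC basement membrane, was at 10.6, 10.4 and 8.94 CPM in GSK215, 5.42, 6.13 and 5.44 CPM in BSJ-04-0146 and 6.24, 7.26 and 6.39 CPM in DMSO. *Itgb3*, the partner of *Itgav* in the vitronectin receptor, went the other way, at 4.73, 6.04 and 5.48 CPM in GSK215, 8.66, 8.73 and 10.3 CPM in BSJ-04-0146 and 2.26, 2.26 and 1.85 CPM in DMSO (-0.76). *Itgb7* was also lower in GSK215 (-0.39). With GC and length trends removed, 15 protease and inhibitor genes, 9 collagens and 13 integrins and laminins were higher in GSK215.

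**Figure D3:**
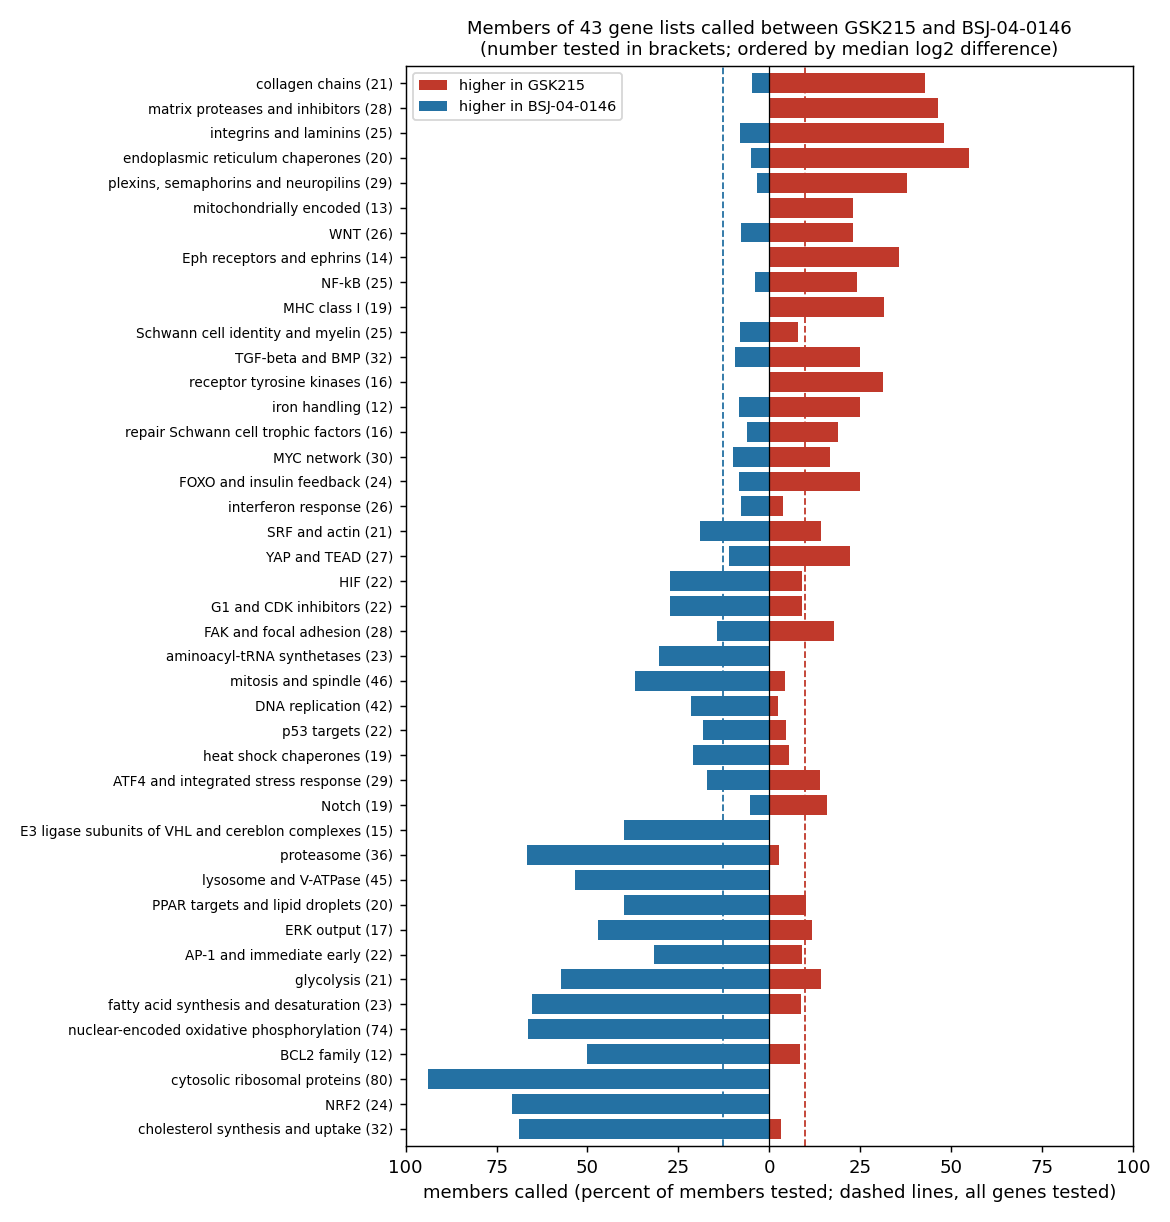
Percent of the tested members of each gene list that were higher in GSK215 (red, to the right) or higher in BSJ-04-0146 (blue, to the left), with the number tested in brackets, ordered by the median difference of the list. Dashed lines mark the percentages over all genes tested, 9.88% and 12.6%. Collagens, matrix proteases, integrins and endoplasmic reticulum chaperones extend furthest right relative to the line, and ribosomal proteins, NRF2 and cholesterol genes furthest left.

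Some receptors and guidance cues of the cell surface were higher in GSK215, though most members of their lists did not pass the test. Plexins, semaphorins and neuropilins, which steer axons and SCs, were higher at 11 of 29 tested members and lower at 1 (none in 5 of the 6 leave-one-out fits, the exception being without BSJ-04-0146 replicate 1; median 0.14; all genes tested, 9.88% higher and 12.6% lower). The secreted semaphorins *Sema3c* (0.58), *Sema3a* (0.56) and *Sema3f* (0.44), the membrane-anchored *Sema7a* (0.55) and the neuropilins *Nrp1* (0.39) and *Nrp2* (0.31) were among the higher. *Sema3c* was at 118, 117 and 108 CPM in GSK215, 80.1, 69.3 and 79.5 CPM in BSJ-04-0146 and 116, 119 and 115 CPM in DMSO, so its BSJ-04-0146 libraries lay apart from the rest. Of 14 Eph receptors and ephrins tested, 5 were higher, among them *Epha7* (0.54), *Efna5* (0.44), *Efnb2* (0.42) and *Ephb3* (0.36), and none was lower. *Ephb2* was at means of 54.1 and 56.7 CPM and did not pass the test (-0.066, 95% interval -0.16 to 0.032).

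*Met*, the receptor of hepatocyte growth factor (chr6:17463800-17573980, plus strand, GRCm38), was one of 5 receptor tyrosine kinases of 16 tested that were higher in GSK215, and none was lower (1 without BSJ-04-0146 replicate 1; all genes tested, 9.88% higher and 12.6% lower). It stood at 198, 182 and 182 CPM in GSK215, 159, 149 and 153 CPM in BSJ-04-0146 and 239, 232 and 241 CPM in DMSO. The 3 groups did not overlap, and the difference between the compounds was 0.28 (SE 0.0347, 95% interval 0.21 to 0.35, adjusted *P* = 6.9e-08), or 1.22-fold. Against the shared DMSO libraries, the differences were -0.34 in GSK215 and -0.62 in BSJ-04-0146, so *Met* was below the control with each and further below with BSJ-04-0146. *Pdgfrb*, a receptor of platelet-derived growth factor, was at 66.4, 67.1 and 66.7 CPM in GSK215, 46.3, 40.9 and 49.7 CPM in BSJ-04-0146 and 21.4, 25.7 and 22.5 CPM in DMSO (0.55). The collagen receptor *Ddr2* (0.31) and *Erbb2* (0.18), a partner of the neuregulin receptor, were also higher, and *Fgfr1* (0.066) and *Mertk* (-0.13) did not pass.

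The transcript of the compounds' target did not pass the test. *Ptk2* (chr15:73205102-73423280, minus strand) was at 77.6, 78.6 and 77.4 CPM in GSK215, 81, 80.1 and 78.1 CPM in BSJ-04-0146 and 92.9, 95.4 and 97.7 CPM in DMSO. The treated groups overlapped, and the 95% interval of their difference was -0.11 to 0.042 around -0.035 (adjusted *P* = 0.579). *Ptk2b*, the related kinase PYK2, had at most 4 counts in any of the 9 libraries and was not tested. Among 28 focal adhesion genes tested, 5 were higher and 4 lower (all genes tested, 9.88% and 12.6%), and the interval lay within 1.5-fold for all 28 of them. The counts were 2 higher and 2 lower without BSJ-04-0146 replicate 1 or without replicate 2, and 1 lower without GSK215 replicate 2. The widest differences were at *Vcl*, vinculin (0.42), and *Tns1*, tensin 1 (-0.46), a protein that binds integrin tails. *Tns1* was at 234, 241 and 232 CPM in GSK215 and 314, 309 and 351 CPM in BSJ-04-0146, both far above its DMSO mean of 43.2 CPM. The adaptor gene *Pxn* (-0.029), paxillin, did not pass.

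Of the genes of SC identity, 16% passed the test, against 22.5% of all genes tested. *Sox10*, the master factor of the SC lineage (chr15:79154908-79165240, minus strand), was at 91.7, 98.5 and 103 CPM in GSK215, 90.8, 96.9 and 105 CPM in BSJ-04-0146 and 19.7, 20.3 and 20.3 CPM in DMSO. The treated groups covered the same range (0.0042, 95% interval -0.11 to 0.11, adjusted *P* = 0.97) and both were far above DMSO. Of 25 identity and myelin genes tested, 2 were higher in GSK215, the neurotrophin receptor *Ngfr* (0.35) and *Ncam1* (0.33), and 2 were lower, *Pou3f1* (-0.47) and *Sox2* (-0.12). *Sox2* did not pass without either of GSK215 replicates 1 and 2 or BSJ-04-0146 replicates 1 and 2 (adjusted *P* 0.119 to 0.157), nor with DESeq2, library totals, no filter, the 6 libraries alone or GC and length trends removed (adjusted *P* 0.059 to 0.154). *Mbp* (0.032) and *Erbb3* (0.18) did not pass the test. *Nf2* was at 155, 156 and 162 CPM in GSK215 and 160.2, 160.2 and 172 CPM in BSJ-04-0146 (-0.057, 95% interval -0.13 to 0.012, adjusted *P* = 0.252). Counts over the whole gene do not check a deletion of part of it, and reads of *Nf2* were present in every library.

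**Figure D4:**
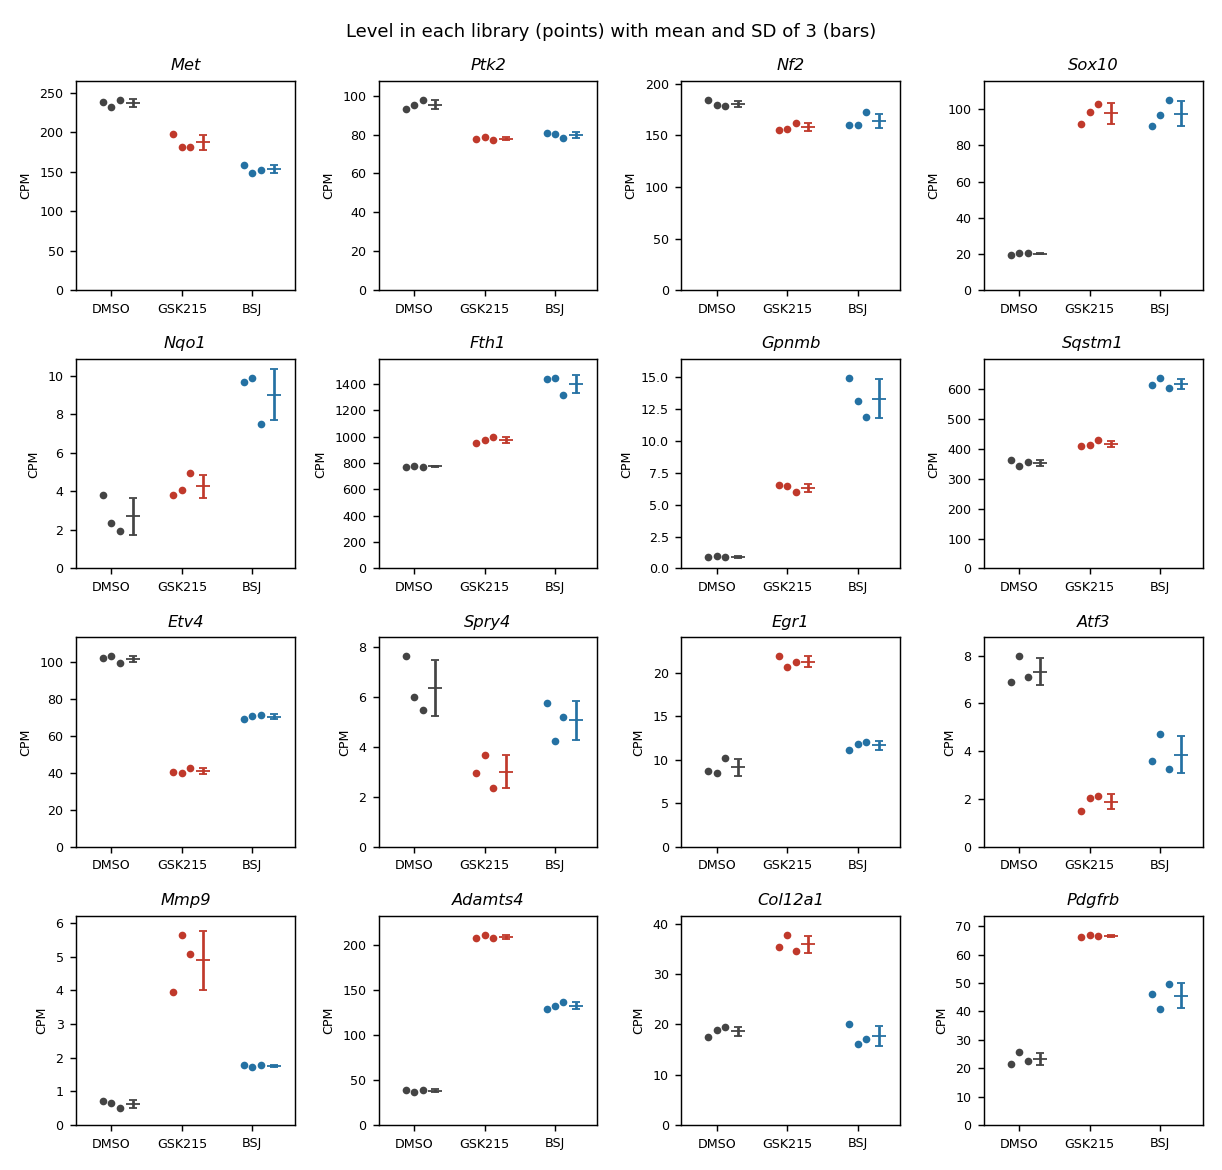
Levels (CPM) of 16 genes in each DMSO, GSK215 and BSJ-04-0146 library, points, with the mean and SD of 3 as bars, each axis starting at 0. *Ptk2*, *Nf2* and *Sox10* overlap between the compounds, *Nqo1*, *Fth1*, *Gpnmb* and *Sqstm1* are higher with BSJ-04-0146, and *Mmp9*, *Adamts4*, *Col12a1* and *Pdgfrb* are higher with GSK215.

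Chaperones of the endoplasmic reticulum, which fold secreted and membrane proteins, were higher in GSK215 at 11 of 20 tested members, with 1 lower and a median of 0.16 (all genes tested, 9.88% higher and 12.6% lower). They included *Hyou1* (0.26), *Xbp1* (0.26), *Hsp90b1* (0.24), *Pdia4* (0.23), *Canx* (0.20) and *Hspa5* (0.18), and the member that was lower was *Sec61b*, a subunit of the translocon (-0.23), which did not pass without GSK215 replicate 2 or without BSJ-04-0146 replicate 2 (adjusted *P* 0.0532 and 0.15). *Hyou1* was at 259, 267 and 264 CPM in GSK215 and 217, 219.7 and 223 CPM in BSJ-04-0146, with 305 CPM in DMSO. Glycolytic genes were mostly lower in GSK215, 12 of 21 with 3 higher (median -0.15; all genes tested, 12.6% lower and 9.88% higher). *Pkm*, pyruvate kinase, was at 2845, 2895 and 2939 CPM in GSK215, 3612, 3699 and 3526 CPM in BSJ-04-0146 and 4108, 4074 and 4059 CPM in DMSO (-0.32). The glycolytic members higher in GSK215 included *Hk2*, a hexokinase (0.20) and the monocarboxylate transporter *Slc16a1* (0.29).

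Of 80 cytosolic ribosomal protein genes, 75 were lower in GSK215 and none was higher, with a median of -0.22 (all genes tested, 12.6% lower and 9.88% higher), and their share of all counts was 4.19% to 4.21% in the GSK215 libraries, 4.66% to 5.07% in the BSJ-04-0146 libraries and 5.15% to 5.28% in DMSO. *Rps20* was at 284, 276 and 279 CPM in GSK215 and 353, 379 and 348 CPM in BSJ-04-0146 (-0.36), and *Rps29* differed by -0.39. Ribosomal protein genes have many processed pseudogenes, and reads may be split between the copies. Of 74 nuclear-encoded subunits of the respiratory chain and ATP synthase, 49 were lower in GSK215 and none was higher (median -0.17), for example *Atp5e* (-0.36) and *Ndufa11* (-0.31). Of 36 proteasome genes, 24 were lower and 1 was higher, the factor *Nfe2l1* that drives proteasome synthesis (0.17), with a median of -0.12. Without BSJ-04-0146 replicate 2, 29 respiratory chain genes and 14 proteasome genes were lower.

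These lists are made of short transcripts, and the libraries differed with transcript length. Over 10366 genes with a mean of at least 5 CPM, the difference between the compounds correlated with the log length of the longest transcript (Pearson's r = 0.31 across genes, which are not independent replicates) and with GC content (r = -0.21). In the shortest 20% of genes, 57 to 2035 bases, the median difference was -0.11 and 34.7% were lower in GSK215. In the longest 20%, above 5443 bases, the median was 0.056 and 28.1% were higher. The median length was 1076 bases for the ribosomal protein list, 1094 for the respiratory chain list, 1851 for the proteasome list, 6450 for collagens and 3191 for cholesterol genes, against 2964 over all genes tested. With the GC and length trends removed, 72 ribosomal protein genes (median -0.19), 48 respiratory chain genes (median -0.14) and 22 proteasome genes (median -0.10) were lower in GSK215.

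**Figure D5:**
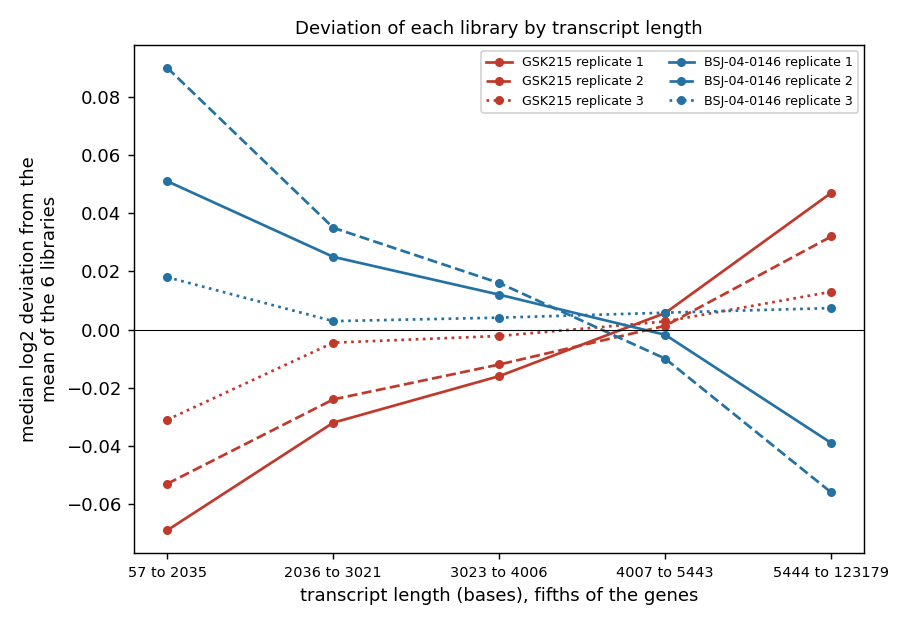
Median log2 deviation of each library from the mean of the 6, in 5 equal groups of the genes by transcript length (bases). The GSK215 libraries (red) run from below 0 for short transcripts to above 0 for long ones, BSJ-04-0146 replicates 1 and 2 run the opposite way, and BSJ-04-0146 replicate 3 is nearly flat.

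Replication and mitosis genes differed by little. Of 46 mitosis and spindle genes, 17 were lower in GSK215 and 2 higher, with a median of -0.05 (all genes tested, 12.6% lower and 9.88% higher), and all 46 had an interval within 1.5-fold. *Ccnb2* (-0.22) and *Spc25* (-0.20) were lower, whereas *Mki67* (0.26) and *Top2a* (0.11), long transcripts used as marks of dividing cells, were higher. *Top2a* did not pass without GSK215 replicate 1 or without BSJ-04-0146 replicate 2 (adjusted *P* 0.0641 and 0.0605), nor with the GC and length trends removed (adjusted *P* = 0.215). *Mki67* was at 0.16 with these trends removed. Its level was 609, 582 and 558 CPM in GSK215, 482, 469 and 510.3 CPM in BSJ-04-0146 and 672, 677 and 648 CPM in DMSO. For 42 DNA replication genes, 9 were lower and 1 was higher, *Pole* (0.19), a called share of 23.8% that is near the 22.5% of all genes tested, and the count of lower genes was 3 without GSK215 replicate 1 and 5 without GSK215 replicate 2. In bulk RNA, fewer cells in a phase and less RNA per cell cannot be told apart.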

How the data were processed

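Poly(A) RNA of MS03 cells was sequenced in 24 libraries, 3 for each of 8 treatments. The authors deposited raw counts per gene, and the submitters' processing notes name Trimmomatic 0.36, STAR 2.5.2b, featureCounts, Subread 1.5.2 and GRCm38; the annotation release and the strand setting are not given in the sources used here, so reads of overlapping or antisense genes cannot be told apart. Columns were tied to samples by their names. Here the counts were fitted with edgeR 4.0.16 in R 4.3.3 (TMM scaling, filterByExpr, quasi-likelihood test) over all 24 libraries and 8 groups, which share 1 estimate of the spread, and *P* values were Benjamini-Hochberg adjusted over 16070 genes with a threshold of 0.05. The contrast was GSK215 minus BSJ-04-0146, with DMSO for reference. Intervals are 95% and come from the fitted value and its standard error.

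Genes were named by rule: *Met*, *Ptk2*, *Ptk2b*, *Nf2* and *Sox10*, the 10 largest differences in each direction at a mean of at least 5 CPM with groups that did not overlap, the 5 largest at a mean of at least 100 CPM, and up to 2 called members of each list in each direction; further list members were named after their values were seen, and some genes that the rule or the lists hold are not reported here. Predicted-gene and clone identifiers (Gm or Rik) and genes without a symbol were left out of the largest differences. The comparison, the gene lists and the rule were chosen with earlier results of these data known. Promoter sequences and gene lengths came from RefSeq (GRCm38.p6) and GENCODE M21. Libraries of a group differed by more than counting noise in chi-square tests, so none was a copy. On data simulated for this contrast over 15617 genes, edgeR recovered 87% of 1.5-fold and 96% of 2-fold changes and called 8 unchanged genes. The simulation changed 100 genes at each size and did not choose them among the lowest genes. It gave both compounds the same spread per gene and held no GC or length trend, so these rates need not hold for the real libraries. The alternatives were DESeq2 1.42.0, limma 3.58.1 (log2(CPM + 4)), library totals, no filter, a replicate block, the 6 libraries alone, GC and length trends removed, and leaving out each library.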

Additional observations from a re-analysis of the deposited data

How the results depend on the processing

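The count of 3615 genes was 3404 with DESeq2, 3569 with library totals, 4102 with limma-trend, 3165 with no filter, 3391 from the 6 libraries alone and 3750 with GC and length trends removed, and 2574 to 3389 when a library was left out. Asking for at least 1.5-fold left 254. With a replicate block the count was 3552, and the numbers mark no pairing that the labels state. Same-numbered libraries' deviations correlated at -0.0148 to 0.00708 over all genes tested, with low genes weighted like abundant ones. Whether same-numbered libraries shared a culture or a batch was not tested. Leaving out 1 library gave 29 to 52 lower respiratory chain genes, the lowest without BSJ-04-0146 replicate 2, and the cause was not tested. A few differences near 0 changed sign. Leaving out 1 library gave -0.043 to 0.062 for *Sox10*, -0.0058 to 0.06 for *Dhcr7* and -0.053 to 0.023 for *Pxn*. With GC and length trends removed *Pxn* was at 0.0097, with or without the block. *Hmgcs1* in BSJ-04-0146 against DMSO was at 0.064 with library totals and at 0.03 with the trends removed, with or without the block. Genes under 5 CPM, with a median standard error of 0.35, are limited by depth. The limma-trend scale, log2(CPM + 4), understates low genes by its construction, and 15 called genes named in the text were smaller there by over 1.5 times. They were *Mmp9* (0.62), *Abca1* (0.66), *Adamts8* (0.57), *Lama2* (0.53), *C3* (0.51), *Adamts2* (0.44), *Itgb8* (0.29), *Nqo1* (-0.65), *Coro2a* (-0.49), *Itgb3* (-0.49), *Atf3* (-0.41), *Spry4* (-0.37), *Bok* (-0.30), *Tfeb* (-0.24) and *Atp6v0a4* (-0.21).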

Other observations

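Several groups have not yet been described (all genes tested, 9.88% higher and 12.6% lower). Of 26 interferon response genes tested, 1 was higher in GSK215, *Parp14* (0.41), and 2 were lower (none without GSK215 replicate 1 or without BSJ-04-0146 replicate 2), while the list's median stood 0.59 above DMSO in GSK215 and 0.56 in BSJ-04-0146. Amino acid response genes controlled by ATF4 had medians of -0.94 in both against DMSO, and 4 of 29 were higher and 5 lower between the compounds (3 lower without GSK215 replicate 2). Genes induced by hypoxia had medians of -0.74 and -0.75 against DMSO, and between the compounds 6 of 22 were lower in GSK215, with *Ddit4* farthest (-0.57), and 2 were higher, *P4ha1* (0.36) and *Plod2* (0.26), which encode enzymes that hydroxylate collagen. MHC class I genes were higher in GSK215 at 6 of 19, led by the peptidase *Erap1* (0.39), and none was lower.

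Of 15 genes of the VHL and cereblon ligase complexes and the HIF subunits, 6 were lower in GSK215 and none was higher. *Epas1*, which encodes HIF-2α, was at 10.2, 9.88 and 10.4 CPM in GSK215, 15.3, 15.6 and 16.6 CPM in BSJ-04-0146 and 5.29, 6.09 and 5.4 CPM in DMSO (-0.64), while *Vhl* (-0.086) and *Cul2* (-0.033) did not pass the test. In the BCL2 family, 6 of 12 were lower in GSK215, among them the death-promoting *Bok* (-0.50), *Bad* (-0.31) and *Bak1* (-0.26), and *Bcl2* was higher (0.16), though not without GSK215 replicate 1 or without BSJ-04-0146 replicate 1 (adjusted *P* 0.0709 and 0.0943) nor with GC and length trends removed (0.087, adjusted *P* = 0.175). Of 25 NF-κB genes, 6 were higher, including the chemokines *Cxcl5* (0.43) and *Cxcl10* (0.43) and the adhesion molecule *Vcam1* (0.41), and *Tnfaip2* was lower, at 28, 27.2 and 26.1 CPM in GSK215 against 51.7, 52.9 and 51.1 CPM in BSJ-04-0146. Mitochondrially encoded transcripts were higher in GSK215 at 3 of 13, but at none without BSJ-04-0146 replicate 3, at 1 without GSK215 replicate 3 and at 5 without BSJ-04-0146 replicate 1. Their share of all counts was 3.83% to 4.25% in GSK215 and 3.34% to 4.10% in BSJ-04-0146, and those ranges overlap.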
